A study of Saccharomyces cerevisiae with 37 samples.

Results

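Ribonucleotide reductase (RNR) makes deoxyribonucleotides, the building blocks of DNA, from ribonucleotides. The transcripts described here are those of the 4 RNR subunit genes of budding yeast (RNR1, RNR2, RNR3 and RNR4), of 3 small proteins that restrain or place the enzyme (SML1, DIF1 and HUG1), of the kinase gene DUN1 and of the repressor gene RFX1. They were taken as all probe sets whose platform annotation names one of these genes. All 9 genes were found, with 1 probe set each, among 5449 named genes on the array. A mean log2 value of 11.04, the 30th percentile of all probe sets over 0 to 30 min, separated dim from brighter probe sets. RNR3 (mean 11.03) and HUG1 (mean 11.01) lay just under it, RFX1 (11.04 after rounding) just over it, and all 9 were kept.

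Affymetrix Yeast Genome 2.0 arrays measured poly(A) RNA of Saccharomyces cerevisiae. The strain, Y262, has an RNA polymerase II that fails at high temperature. All 4 cultures grew in the rich medium YPD at 26 °C to mid-log phase, and prewarmed medium then brought them to 37 °C, which stops transcription. Reference 1 and reference 2 received no added stress, the oxidative stress culture had 25 min of hydrogen peroxide at 0.3 mM, and the DNA damage culture had 40 min of the alkylating agent methyl methanesulfonate (MMS) at 0.1%. The labels give both lengths, read here in the order of the stresses. The 37 arrays cover 0 min (2 technical arrays per culture), then 5, 10, 15, 20 and 30 min, and for all but reference 2 also 40, 50 and 60 min. Each stress was a single culture, the references carry the mutation and went through the same heat step, and only the 2 references show how far cultures of one kind differ.

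As background, Rnr1 is the large catalytic subunit, and Rnr3 is a second large subunit whose gene is known for strong induction by DNA damage. Rnr2 and Rnr4 form the small subunit, in which Rnr2 carries the iron and tyrosyl radical cofactor. When DNA is damaged, the checkpoint kinases Mec1 and Rad53 activate the kinase Dun1, which marks the inhibitors Sml1 and Dif1 for destruction and releases RNR genes from the repressor Rfx1, also called Crt1. RNR1 itself is switched on at the start of S phase by the factor MBF.

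Whole arrays were offset from each other. The second technical array at 0 min differed from the first by a median log2 of 0.45 in reference 1, of −0.14 in reference 2, of 0.37 with peroxide and of 0.017 with MMS. Levels are therefore given relative to the median gene, as the log2 value minus the median of the 5449 named genes on the same array, unless called deposited. On that scale the technical arrays of a culture differed by at most 0.16 for any of the 9 genes. The oxidative stress culture stood apart in a control probe set of ribosomal RNA, which averaged −1.64 relative to the array median. The averages were 0.64 and 0.37 in references 1 and 2 and 0.07 with MMS. Its part in the oxidative stress values below was not tested.

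RNR1 and DIF1 were lower under oxidative stress at 0 min than in the references, by 2.87-fold and 1.98-fold, and the other 7 genes did not pass the test. Under DNA damage none of the 9 passed. There RNR3, DUN1 and HUG1 differed from the reference mean by 0.81, 0.64 and 0.60 log2 and SML1 by −0.79. On the relative scale RNR2 and RNR4 lay between −0.23 and 0.11 log2 of the references in both stresses. The test was limma on 1 value per culture with Benjamini-Hochberg adjustment over all 5449 genes at 0.05. Of all genes tested, 6.24% were called under oxidative stress (217 higher and 123 lower), against 2 of the 9 genes here, and 3.63% under DNA damage (100 higher and 98 lower), against 0 of 9 (3 at an unadjusted p under 0.05). The unadjusted limma p was under 0.05 for 861 and 995 of all 5449 genes in the same order. The median difference over all genes was −0.11 under oxidative stress and −0.18 under DNA damage. On deposited values these medians were 0.24 and −0.20 with 460 higher and 44 lower and 108 higher and 139 lower genes, and on the spike-in scale 0.43 and −0.28 with 173 and 0 and 31 and 5. After quantile normalization the counts were 49 and 0 and 17 and 1. With the scatter of arrays within cultures as the error, limma called 31.7% of all genes higher and 38.2% lower in reference 1 than in reference 2. Technical arrays of single cultures that lie apart, as given for single genes below, were thus common over all genes.

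**Figure D1:**
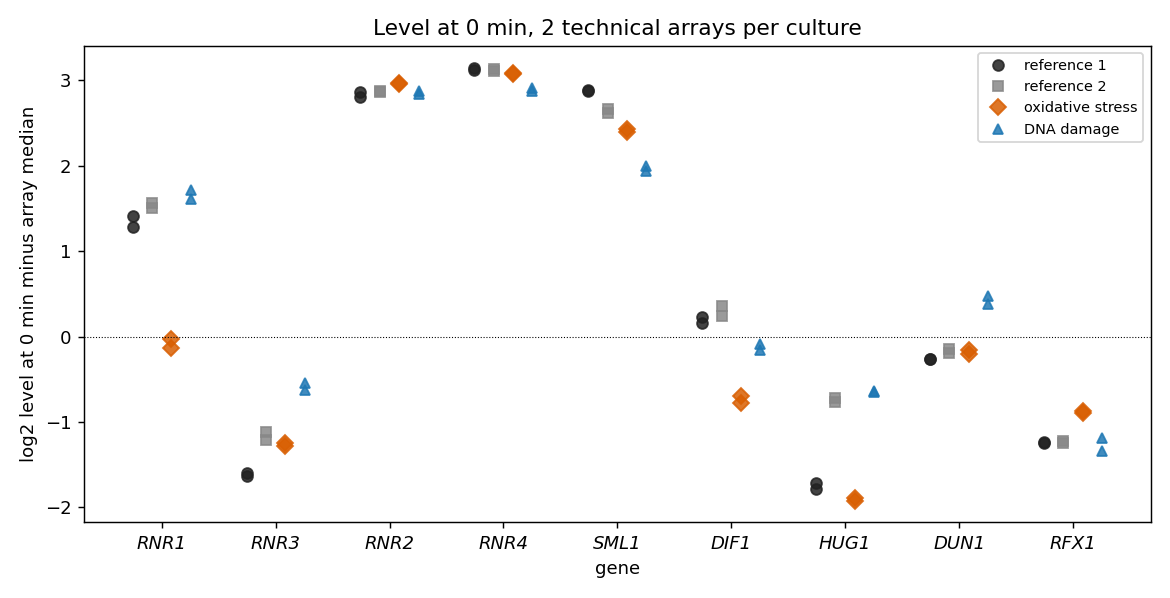
Level at 0 min of the 9 genes (horizontal axis) as log2 value minus the array median (vertical axis), with 1 point per technical array and 2 arrays per culture. The oxidative stress points of RNR1 and DIF1 lie below those of the other cultures, and the HUG1 points of the 2 references lie about as far apart as those of the stressed cultures.

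RNR1 (YER070W) stood at 1.28 and 1.41 on the arrays of reference 1 at 0 min and at 1.51 and 1.56 in reference 2. It stood at −0.13 and −0.03 under oxidative stress and at 1.61 and 1.72 under DNA damage. The oxidative stress arrays were thus below all others, and the DNA damage arrays were above all reference arrays. The oxidative stress difference was −1.52 (SE 0.24, 1 stressed against 2 reference cultures, limma adjusted p = 0.000572), being −1.42 against reference 1 and −1.62 against reference 2. It kept its sign but lost the call after quantile normalization (−1.59, adjusted p = 0.0909) and when arrays were scaled to spike-ins (−0.98, adjusted p = 0.527). The DNA damage difference was 0.22 (95% interval −0.29 to 0.73, adjusted p = 0.612).

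The alternative large subunit gene RNR3 (YIL066C) was at −1.60 and −1.63 in reference 1 and at −1.21 and −1.12 in reference 2. It was at −1.28 and −1.25 under oxidative stress and at −0.62 and −0.54 under DNA damage. The DNA damage arrays were above all others, while the oxidative stress arrays lay between the references. The DNA damage difference of 0.81 (SE 0.26) missed the threshold (limma adjusted p = 0.0948), and the references differed by −0.45. It passed when arrays were centred on the brighter genes alone (adjusted p = 0.0434) or with a trend and robust prior (adjusted p = 0.00463), an eBayes prior that both follows brightness and is robust to outlying genes.

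The small subunit genes RNR2 (YJL026W) and RNR4 (YGR180C) varied least on the relative scale. RNR2 ranged from 2.81 to 2.97 over the 8 arrays at 0 min and RNR4 from 2.88 to 3.15. For RNR2 the differences were 0.11 under oxidative stress (95% interval −0.39 to 0.61) and 0.0043 under DNA damage (−0.50 to 0.51). For RNR4 they were −0.047 (−0.55 to 0.46) and −0.23 (−0.74 to 0.27). Both DNA damage arrays of RNR4 lay below the other 6. Under oxidative stress the RNR2 difference was 0.47 as deposited and 0.65 on the spike-in scale, and that of RNR4 0.31 and 0.50. After quantile normalization RNR2 differed by 0.38 and RNR4 by 0.16 under DNA damage. None of these passed.

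Among the small regulators, DIF1 (YLR437C), whose product carries Rnr2 and Rnr4 into the nucleus, was at 0.16 and 0.23 in reference 1 and at 0.36 and 0.24 in reference 2. It was at −0.70 and −0.78 under oxidative stress and at −0.16 and −0.09 under DNA damage, so neither stressed culture overlapped the references. The oxidative stress difference was −0.99 (SE 0.24, limma adjusted p = 0.0181), and it lost the call on values as deposited (−0.63, adjusted p = 0.217), after quantile normalization (−1.04, adjusted p = 0.113) and on the spike-in scale (−0.45, adjusted p = 0.747). The DNA damage difference was −0.37 (adjusted p = 0.409).

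SML1 (YML058W) encodes the inhibitor that binds Rnr1. Its values were 2.88 and 2.89 in reference 1, 2.62 and 2.67 in reference 2, 2.43 and 2.39 under oxidative stress and 1.94 and 2.00 under DNA damage. The order of cultures was therefore reference 1, reference 2, oxidative stress and DNA damage, with no overlap. The DNA damage difference of −0.79 (SE 0.24) missed the threshold (limma adjusted p = 0.0858) and passed with the trend and robust prior (adjusted p = 0.011). The oxidative stress difference was −0.35 (adjusted p = 0.517).

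HUG1 (YML058W-A), which encodes a small protein of the Sml1 family known to be induced by DNA damage, lies next to SML1 in the gene table. It stood at −1.71 and −1.79 in reference 1 but at −0.72 and −0.76 in reference 2. Oxidative stress arrays were at −1.92 and −1.89 and DNA damage arrays at −0.65 and −0.64, so each stressed culture lay close to a different reference. The difference under DNA damage was 0.60 against both references (SE 0.32, limma adjusted p = 0.329), 1.10 against reference 1 and 0.094 against reference 2. Under oxidative stress it was −0.66 (adjusted p = 0.34), −0.15 against reference 1 and −1.16 against reference 2. The references differed by −1.01, more than either of these averages.

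DUN1 (YDL101C) was at −0.26 on both arrays of reference 1, −0.19 and −0.15 in reference 2, −0.16 and −0.20 under oxidative stress and 0.47 and 0.38 under DNA damage. Only the DNA damage arrays stood apart, by 0.64 (SE 0.24, limma adjusted p = 0.166). RFX1 (YLR176C) was at −1.24 and −1.23 in reference 1, −1.24 and −1.22 in reference 2, −0.89 and −0.87 under oxidative stress and −1.34 and −1.19 under DNA damage. The oxidative stress arrays were the highest, by 0.35 (95% interval −0.15 to 0.85, adjusted p = 0.51), and the DNA damage arrays spanned the references.

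Set against each other at 0 min, the stressed cultures differed in 1 of the 9 genes by the same test, where 1.06% of all genes were called (47 higher and 11 lower under oxidative stress, but 274 and 16 as deposited, 39 and 3 on the spike-in scale, 64 and 39 centred on brighter genes and 0 after quantile normalization, where 430 had an unadjusted p under 0.05). RNR1 was 3.35-fold lower under oxidative stress than under DNA damage (difference −1.74, SE 0.28, limma adjusted p = 0.00353). The call was lost with the dim genes left out of the fit (adjusted p = 0.0656), after quantile normalization (−2.01, adjusted p = 0.423) and on the spike-in scale (−1.10, adjusted p = 0.411). The next largest differences were those of HUG1 (−1.26, adjusted p = 0.153, or 0.00235 with the trend and robust prior), RNR3 (−0.68, adjusted p = 0.472), DIF1 (−0.61, adjusted p = 0.511) and DUN1 (−0.61, adjusted p = 0.519). On the spike-in scale DIF1 and DUN1 turned in sign, to 0.027 and 0.035. SML1 stood at 0.44 and RFX1 at 0.38 in this comparison on the main scale, and neither passed.

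**Figure D2:**
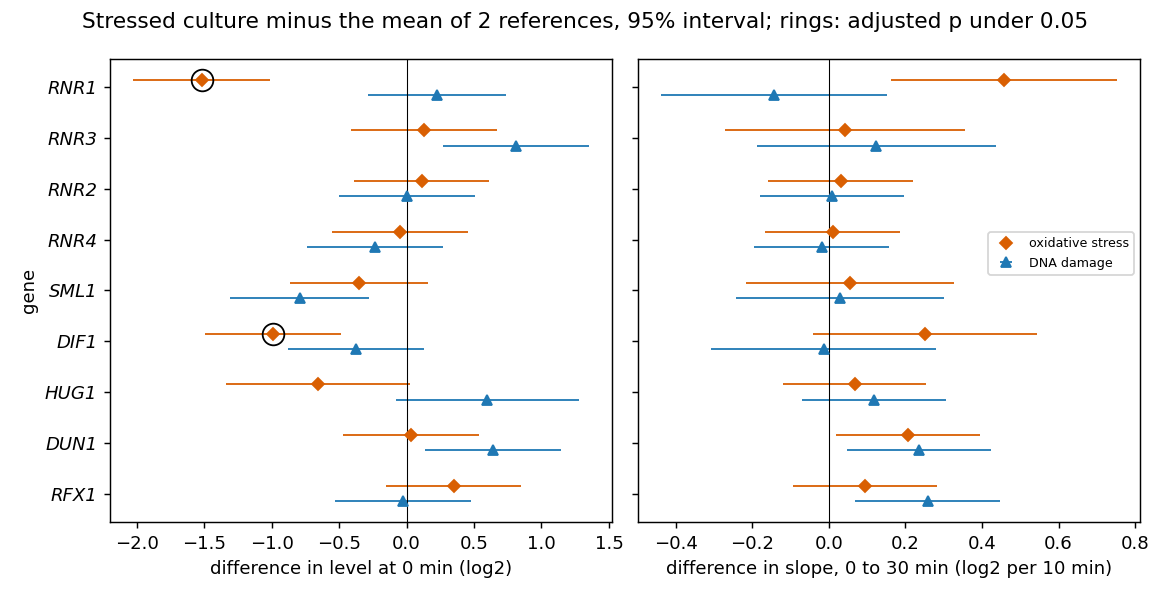
Differences of each stressed culture from the mean of the 2 references, with 95% intervals from limma, in level at 0 min (left, log2) and in slope over 0 to 30 min (right, log2 per 10 min). Rings mark the 2 level differences that passed, RNR1 at −1.52 and DIF1 at −0.99 under oxidative stress, and no slope difference passed.

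After the shift RNR1 was lost faster than the other members in every culture over the first 10 min, while under DNA damage the deposited values of RFX1, HUG1, RNR3 and DUN1 changed by between −0.34 and −0.14 log2 over 30 min. Without stress, RNR1 fell faster than the median gene and HUG1 more slowly, 2 of 9 genes called where 26.1% of all genes were (762 slower and 660 faster). No slope difference between a stress and the references was called among the 9 genes by limma, nor among all 5449 genes: the share called was 0% in each of these comparisons and between the stresses. At an unadjusted p under 0.05 the counts over all genes were 416 for oxidative stress, 1481 for DNA damage and 1556 between them, and over the 9 genes 2, 2 and 1. With the trend and robust prior limma called 87 higher and 159 lower, 468 and 1110, and 1122 and 501, so the count of 0 depends on the prior.

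The median gene itself fell as deposited. Over 0 to 30 min its slopes were −0.43 and −0.33 log2 per 10 min in references 1 and 2, −0.31 with peroxide and −0.35 with MMS. The 18 bacterial poly-A spike-in probe sets above the brightness threshold had median slopes of −0.090, −0.067, −0.078 and −0.060, which were not taken off. The half-lives below rest on deposited values, and an error in the scaling of an array moves all genes of that array together.

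In reference 1 the deposited RNR1 value was 13.47 and 14.04 at 0 min, then 12.79, 11.29, 11.02, 10.88 and 10.54 at 5, 10, 15, 20 and 30 min. In reference 2 it was 13.93 and 13.73, then 11.70, 10.68, 10.44, 10.56 and 11.19. Most of the fall came before 10 min in both references, and in reference 2 the last value was above the ones before it. Under DNA damage RNR1 went from 14.05 and 13.96 to 12.58, 11.83, 11.15, 11.12 and 10.76. Under oxidative stress it went from 12.39 and 12.86 to 11.88, 11.28, 11.25, 11.37 and 11.34, so it was flat from 10 to 30 min, where the DNA damage culture lost another 1.07. In that window the deposited median gene changed by −0.143 under oxidative stress and −0.695 under DNA damage. Relative to it, RNR1 changed by 0.21 and −0.38 in the same order. From 30 to 60 min the oxidative stress value changed by −1.52 as deposited and by −0.22 relative to the median gene.

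The fall of RNR1 between 0 and 10 min corresponded to a half-life of 4.06 min in reference 1, 3.17 min in reference 2, 4.61 min under DNA damage and 7.40 min under oxidative stress. The median gene had half-lives of 18.4, 9.17, 25.7 and 13.5 min in the same order over the same window. Relative to the median gene, RNR1 changed by −1.92 and −2.06 over these 10 min in the references, by −1.78 under DNA damage and by −0.61 under oxidative stress. The oxidative stress culture, which began lower, lost least. By 30 min the cultures had come closer, at −0.68 and −0.06 in references 1 and 2, −0.48 with peroxide and −0.49 with MMS. The part of the lower starting level, or of values near the dim threshold, in this smaller fall and longer half-life was not tested.

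The RNR1 slope in the references was −0.52 log2 per 10 min relative to the median gene (SE 0.062, limma adjusted p = 0.0195). It was −0.15 without the arrays at 0 min (adjusted p = 0.336) and −0.50 without those at 15 min (adjusted p = 0.0598), a setting in which limma called 0 of all genes (2142 at an unadjusted p under 0.05). Without those at 30 min it was −0.98 and passed. The slope difference of oxidative stress from the references was 0.46 (95% interval 0.16 to 0.75, adjusted p = 0.424) over 0 to 30 min and passed over 0 to 20 min (0.86, adjusted p = 0.0231). Between the stresses it was 0.60 (adjusted p = 0.114), and it passed on deposited values (0.64, adjusted p = 0.0178) and over 0 to 20 min (0.93, adjusted p = 0.0235). The DNA damage slope differed by −0.14 (−0.44 to 0.15, adjusted p = 0.442).

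**Figure D3:**
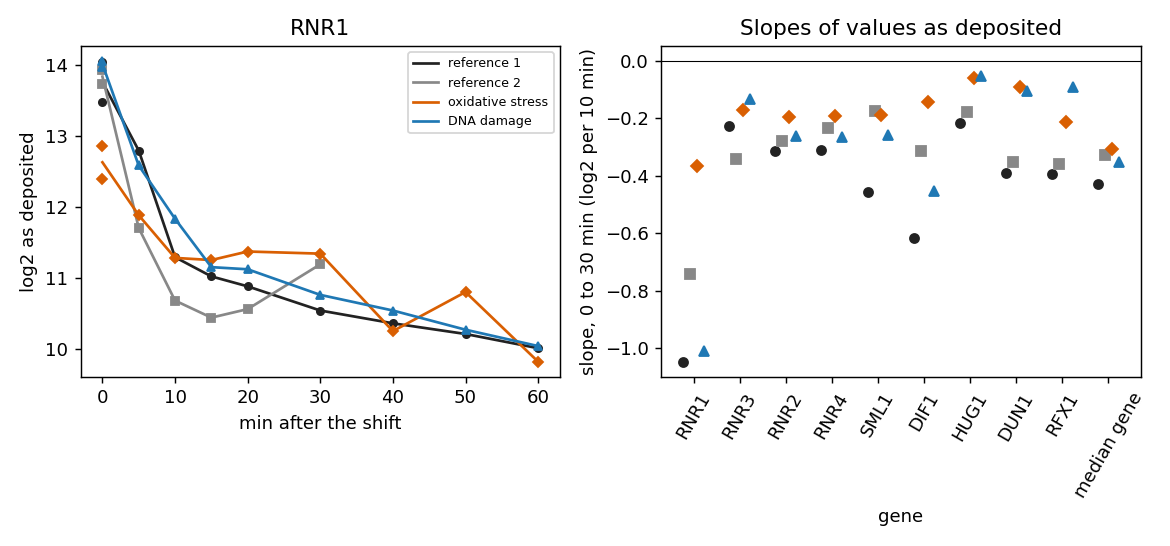
Left, RNR1 as deposited (log2) against minutes after the shift, with points for arrays and lines through the mean at each time. Right, slope of the deposited values over 0 to 30 min (log2 per 10 min) for each gene and the median gene in the 4 cultures, where RNR1 lies lowest in each culture.

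RNR2 and RNR4 were lost slowly. Over 0 to 30 min the half-life of RNR2 was 31.7 and 36.1 min in the references, 51.5 min with peroxide and 38.3 min with MMS. In the same order that of RNR4 was 32.3, 42.5, 52.2 and 37.8 min. Both genes therefore outlasted the median gene, at 23.3, 30.6, 32.5 and 28.5 min, in all 4 cultures. Their slopes relative to the median gene were 0.082 and 0.11 log2 per 10 min in the references (limma adjusted p = 0.196 and 0.106). Both passed over 0 to 20 min (0.20 and 0.19, limma adjusted p = 0.0223 and 0.0315). RNR4 also passed with the trend and robust prior (adjusted p = 0.0372). Over 0 to 30 min no stress moved either slope by more than 0.031, with 95% intervals within −0.19 and 0.22. From 30 to 60 min RNR2 changed by −0.37 relative to the median gene in reference 1, by 0.27 under oxidative stress and by 0.28 under DNA damage.

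The slopes of DUN1 and RFX1 were higher under DNA damage than in either reference. The deposited slope of DUN1 was −0.39 and −0.35 log2 per 10 min in the references, −0.092 under oxidative stress and −0.11 under DNA damage, and the half-life was 25.7, 28.6, 108.5 and 94.2 min. Over 0 to 30 min the slopes of both stressed cultures thus lay apart from both references, but their half-lives extrapolate beyond that window. From 30 to 60 min deposited DUN1 changed by −1.50 under oxidative stress, where the median gene changed by −1.31. Under DNA damage the changes were −0.48 and −0.46. The DNA damage slope difference was 0.24 on the relative scale (95% interval 0.048 to 0.42, limma adjusted p = 0.145), and that of oxidative stress was 0.21 (0.018 to 0.39, adjusted p = 0.579). For RFX1 the deposited slopes were −0.39, −0.36, −0.21 and −0.091. The RFX1 slope difference under DNA damage was 0.26 (0.069 to 0.45, adjusted p = 0.13). With the trend and robust prior both DNA damage differences passed (adjusted p = 0.0146 for DUN1 and 0.0034 for RFX1).

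At 60 min the relative level of DUN1 was 1.15 under DNA damage, 0.28 under oxidative stress and −0.01 in reference 1. That of RFX1 was −0.35, −0.89 and −1.14 in the same order. DUN1 was highest under DNA damage at every time measured.

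RNR3 and HUG1, known as damage-induced genes, stood higher relative to the median gene at 30 min than at 0 min in all 4 cultures. So did RNR2, RNR4, SML1, DUN1 and RFX1. Under DNA damage RFX1 gained 0.94, and RNR3 and HUG1 each gained 0.86. Under DNA damage the deposited value of RNR3 was 11.79 and 11.73 at 0 min, 11.53 at 30 min and 11.34 at 60 min. In reference 1 it averaged 10.79 at 0 min, then stood at 10.23 and 9.99. On the relative scale it went from −0.58 to 0.28 and 0.54 under DNA damage and from −1.62 to −0.99 and −0.70 in reference 1. In reference 2 the relative value differed by 0.027 between 0 and 30 min. The DNA damage culture stayed above the others at each time measured. The slope difference of 0.12 log2 per 10 min did not pass (95% interval −0.19 to 0.44, limma adjusted p = 0.524).

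HUG1 under DNA damage was nearly constant as deposited, at 11.67 and 11.70 at 0 min, 11.46 at 30 min and 11.77 at 60 min. Under oxidative stress it was 10.60 and 11.01, then 10.67 and 9.93. Relative to the median gene it gained 0.86 and 0.75 from 0 to 30 min in these cultures and 0.68 and 0.49 in the references, so the references gained as well. Its reference slope was 0.18 (SE 0.039, limma adjusted p = 0.0429), a call lost without the arrays at 0 min (0.086, adjusted p = 0.357), at 15 min (0.18, adjusted p = 0.0749) or at 20 min (0.17, adjusted p = 0.0602). Both probe sets are dim. The 1550 dim genes as a group had median relative slopes of 0.017 and −0.0058 in the references, 0.047 with peroxide and −0.13 with MMS.

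DIF1 and SML1 had unlike slopes in the references. The deposited slope of DIF1 was −0.62 in reference 1 and −0.32 in reference 2, and −0.14 under oxidative stress and −0.45 under DNA damage. Relative to the median gene, DIF1 went from 0.20 to −0.45 over 30 min in reference 1 and from −0.12 to −0.52 under DNA damage. It went from 0.30 to 0.19 in reference 2 and from −0.74 up to −0.31 under oxidative stress. The oxidative stress slope was the highest of the 4, yet its difference of 0.25 did not pass (95% interval −0.041 to 0.54, limma adjusted p = 0.719) except with the trend and robust prior (adjusted p = 0.000663) and with array scatter as the error (0.28, adjusted p = 0.00919). The deposited slope of SML1 was −0.46 in reference 1 and −0.17 in reference 2, and both stresses lay between them at −0.19 and −0.26.

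**Figure D4:**
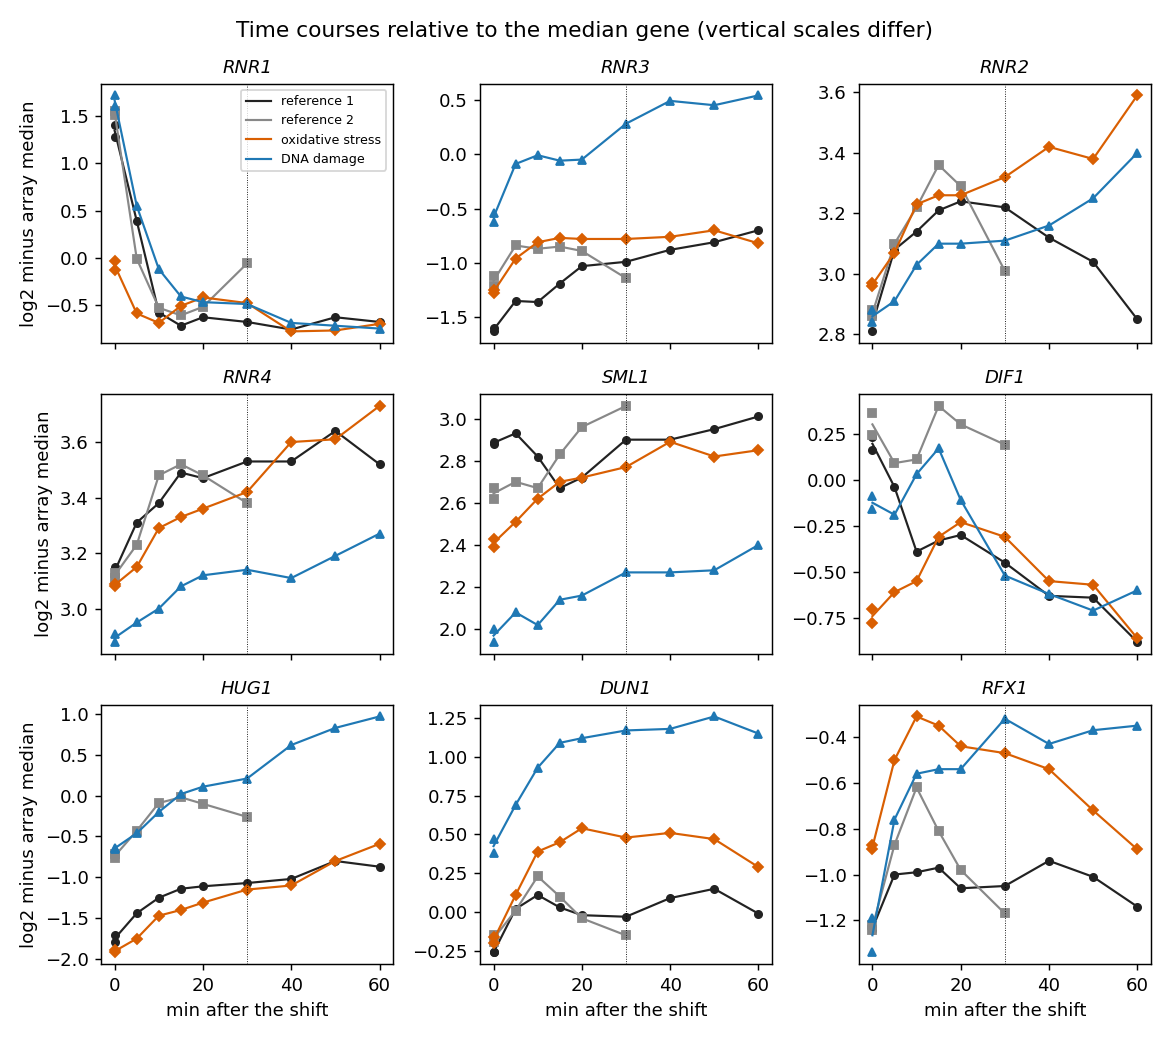
Time courses of the 9 genes relative to the median gene (log2 minus the array median) against minutes after the shift, with 1 point per array and lines through the mean at each time. Vertical scales differ between panels, and the dotted line marks 30 min, the last time with all 4 cultures. RNR1 falls within 10 min in all cultures, while RNR3, HUG1 and DUN1 end highest under DNA damage.

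Other genes around RNR were described as 5 lists. The first holds genes that reduce RNR or serve its cofactor. Of 7, TRR1 (thioredoxin reductase), DRE2 and TAH18 (partners in electron transfer to iron-sulfur assembly and to the RNR cofactor) rose under oxidative stress, and DRE2 and TAH18 also under DNA damage, where the remaining members did not pass. DRE2 stood at 0.46 and −0.12 in the references, 2.28 under oxidative stress and 1.35 under DNA damage (differences 2.11 and 1.18, limma adjusted p = 6.15e-05 and 0.0194). TAH18 differed by 1.18 and 1.01 (adjusted p = 0.00451 and 0.0239). TRR1 rose by 0.98 (adjusted p = 0.0185). For scale, limma called 3.98% of all genes higher with peroxide and 1.84% higher with MMS. The list's median difference was 0.47 under oxidative stress and −0.069 under DNA damage, against −0.11 and −0.18 over all genes. After quantile normalization 0 of 7 were called, with differences of 2.15 for DRE2, 1.26 for TAH18 and 1.02 for TRR1 under oxidative stress, while on the spike-in scale DRE2 and TAH18 passed under oxidative stress alone.

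Of 20 genes of the G1 to S transition and DNA replication, 6 fell under oxidative stress, 0 rose and 14 did not pass, where 2.26% of all genes fell, with a median of −0.51. The largest falls were those of the G1 cyclin genes CLN2 (−1.46, limma adjusted p = 0.00127) and CLN1 (−1.29, adjusted p = 0.00375) and the S-phase cyclin gene CLB6 (−1.33, adjusted p = 0.00304). Under DNA damage CLN2 alone fell (−0.97, adjusted p = 0.042, lost after quantile normalization and on the spike-in scale), where 1.8% of all genes fell. The list median there was −0.18, equal to that of all genes. Under oxidative stress 4 of the 20 fell on deposited values, where the list median was −0.15. None of the 20 was called after quantile normalization, where the median was still −0.51, nor on the spike-in scale, where it was 0.036. RNR1 is expressed at the same stage of the cell cycle. In a bulk culture, fewer cells at that stage and less RNA per cell cannot be told apart.

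Of 13 genes that control RNR transcription or the place of its subunits, CYC8, a corepressor that works with Rfx1, fell under oxidative stress (−0.91, limma adjusted p = 0.0294), 12 did not pass, and the median was −0.19 (0.16 as deposited, 0.35 on the spike-in scale). CYC8 lost the call on deposited, quantile and spike-in scales (−0.95 to −0.36). Under DNA damage 0 of 13 passed by limma (1 at an unadjusted p under 0.05, median −0.12), with the corepressor gene TUP1 lowest (−0.62, adjusted p = 0.191). Of 16 checkpoint genes 0 passed in either stress (2 and 0 unadjusted), with medians of −0.11 and −0.19 (0.25 and −0.21 as deposited). The largest differences were those of CSM3 (−0.67, adjusted p = 0.131) under oxidative stress and RAD9 (−0.49, adjusted p = 0.323) under DNA damage. Of 9 genes of nucleotide synthesis 0 passed in either stress (1 and 3 unadjusted), with medians of −0.21 and −0.36 (0.14 and −0.38 as deposited, 0.33 and −0.46 on the spike-in scale). DCD1 passed when arrays were centred on the brighter genes (adjusted p = 0.0456). The deoxycytidylate deaminase gene DCD1 (−0.78, adjusted p = 0.0757) and the adenylate kinase gene ADK1 (−0.63, adjusted p = 0.169) were the farthest from 0. Beside the counts of the control, checkpoint and nucleotide lists, limma called 3.98% of all genes higher and 2.26% lower with peroxide. With MMS these shares were 1.84% and 1.8%.

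The genes most like each member were sought by Pearson correlation of relative values over the 28 arrays at 0 to 30 min, among the 3899 genes above the brightness threshold. These arrays share 4 cultures and 6 times, and the correlations are a description. RNR1 was closest to CTP1 (r = 0.917), SDO1 (0.908) and SIR2 (0.902), RNR2 to APE4 (0.959), CYC7 (0.945) and COQ6 (0.944), and RNR4 to YGR026W (0.984), AIM6 (0.979) and CLC1 (0.977). RNR3 was closest to MRL1 (0.963), FAD1 (0.950) and TMT1 (0.949), and HUG1 to ARN2 (0.963), COS8 (0.959) and BNA1 (0.935). DUN1 was closest to APC9 (0.961), LPP1 (0.959) and GTR2 (0.949), SML1 to CCW14 (0.936), SLC1 (0.935) and INH1 (0.933), and RFX1 to AIM39 (0.937), VID30 (0.927) and SAF1 (0.907). DIF1 had the least close partners, CDC20 (0.812), GNP1 (0.803) and FIR1 (0.798).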

How the data were processed

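The deposited files hold RMA log2 values, per the submitters' processing notes. The version, genome build and any further scaling are not stated in the labels or headers. Values ran from 3.69 to 17.5 with array medians between 10.5 and 12.9, so arrays were not on one scale and each was centred on the median of its named genes. Of 5900 probe sets, 5498 had 1 gene, 0 several and 402 none; all 5498 identifiers matched a RefSeq table of assembly R64, 12 symbols were updated, and the brightest probe set stood for each of 5449 genes.

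Each culture gave 1 level (mean of the 2 technical arrays at 0 min) and 1 least-squares slope over 0 to 30 min. limma 3.58.1 in R 4.3.3 (lmFit, eBayes) fitted all 5449 genes over the 4 cultures, with 1 residual degree of freedom from the references and prior degrees of freedom of 15.3 for levels and 3.08 for slopes. Each single stressed culture was taken to vary as the references do, and the number of arrays and cultures limits precision. Scripts were tested on simulated data.

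The members, the 5 lists (16 checkpoint, 9 nucleotide synthesis, 7 reduction and cofactor, 13 control and 20 G1 to S genes, from textbook knowledge) and the tests were chosen with earlier results of these data known. Besides the members, genes were named as the up to 3 called list genes with the largest difference, or the largest alone where none was called, and the 3 most correlated genes per member. A planned search of promoters was not run, and no sequence or coordinate was used here. Alternatives covered array scaling, the filter, probe sets, the prior, the error, the reference, the arrays at 0 min and the time window.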

Additional observations from a re-analysis of the deposited data

Results flagged for a closer look

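RNR1 was the 1 gene of the 9 whose level at 0 min differed between the stresses by the test of the difference itself (limma on all 5449 genes), by −1.74 log2 for oxidative stress minus DNA damage. Both technical arrays of the oxidative stress culture were below both of the DNA damage culture. With array scatter as the error, limma called 44.9% of all genes higher and 27.3% lower in this comparison, so arrays that lie apart were common.

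The distance of each array from its culture's line over 0 to 30 min was examined in 36 sets of 7 arrays (9 genes in 4 cultures). In 1 set an array stood apart: SML1 in reference 2 at 10 min lay −0.10 log2 from the line, a gap of 0.599 of the whole range of that set. For 7 independent values chance marks about 1 set in 20. Distances from a fitted line are not independent, so the rate here is not known.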

How the results depend on the processing

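The counts of members called moved with the scaling and the error model. For level under oxidative stress, 2 members were called, against 1 as deposited, 0 after quantile normalization, 0 on the spike-in scale and 7 with array scatter as the error. For level under DNA damage the count of 0 became 1 when centred on the brighter genes, 2 with the trend and robust prior and 7 with array scatter. For the direct comparison of levels the count of 1 became 0 after quantile normalization, on the spike-in scale and without dim genes, 2 when centred on the brighter genes or with the trend and robust prior, and 9 with array scatter. For the slope under oxidative stress 0 became 1 with the trend and robust prior, over 0 to 20 min and with array scatter (0 to 1 when single times were left out), and under DNA damage 2 with the trend and robust prior and with array scatter. For the direct comparison of slopes 0 became 1 as deposited, with the trend and robust prior, over 0 to 20 min and with array scatter (0 to 1 when single times were left out). For the reference slope, 2 became 1 without dim genes, 4 with the trend and robust prior, 0 over 5 to 30 min, 5 over 0 to 20 min and 7 with array scatter (0 to 5 when single times were left out). The error from array scatter compares these cultures, not the conditions, and called 1730 higher and 2084 lower genes in level between the references. In slope it called 35 higher and 12 lower between them. Of all genes it called 26% higher and 52.9% lower in level under oxidative stress. Under DNA damage these shares were 23.3% and 59.4%, and between the stresses 44.9% and 27.3%. For slopes they were 3.93% and 5.29%, 15.3% and 24.7%, and 26.2% and 15.6% in the same order. Of reference slopes it called 35.4% slower and 24.8% faster. Windows of 0 to 10 and 10 to 30 min were added after the data were seen and gave 8 and 0 calls for the reference slope. Of all genes 25.7% were called slower and 25.4% faster in the first window, and 2.84% and 5.21% in the second. Over 0 to 10 min slope differences turned in sign under oxidative stress for HUG1 (−0.14), RNR4 (−0.095) and RNR2 (−0.060), and under DNA damage for DIF1 (0.54), RNR1 (0.21), RNR2 (−0.16) and HUG1 (−0.13), as did DUN1 between the stresses (0.063) and the reference slope of SML1 (−0.019). Over 10 to 30 min the reference slopes turned for RFX1 (−0.15), DUN1 (−0.13), RNR1 (0.11), RNR2 (−0.048) and HUG1 (−0.0077), and stress differences of RNR1, RNR3, RNR4 and SML1 turned to between −0.058 and 0.062. On deposited values the level differences under oxidative stress turned for RNR4 (0.31) and SML1 (0.0035). Over all genes, level calls under oxidative stress (340) became 147 higher and 38 lower without dim genes and 298 and 242 with the trend and robust prior. Those under DNA damage (198) became 58 and 25 without dim genes and 182 and 493 with the trend and robust prior. Those between the stresses (58) became 6 and 2 and 137 and 47. Slope calls, 0 under each stress and between them, became 10 higher and 36 lower, 25 and 66, and 72 and 37 on deposited values, and 8 and 58, 107 and 138, and 106 and 117 over 0 to 20 min. Reference slope calls (1422) became 463 slower and 444 faster after quantile normalization, 1532 and 1177 with the trend and robust prior, 170 and 245 over 5 to 30 min and 1423 and 1073 over 0 to 20 min. Leaving out the 30 min arrays is the same fit as the window of 0 to 20 min, so these 2 settings are 1 result. Why counts moved was not tested beyond the genes, arrays or times each alternative leaves out. On deposited and spike-in scales the reference slope is a test against 0, not against the median gene, and is not used, and a single reference gives no test. No paired analysis was possible because the labels number the references alone, and the stressed cultures share no number with them.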

Other observations

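In the references the G1 to S list was lost faster than the median gene. Of its 20 genes, 11 were called faster by limma and 0 slower, where 12.1% of all genes were faster and 14.0% slower, with a median slope of −0.24 log2 per 10 min against 0.018 over all genes, led by the cohesin gene SMC3 (−0.59, adjusted p = 0.0131), TOS4 (−0.40, adjusted p = 0.0183) and the polymerase gene POL1 (−0.39, adjusted p = 0.0154). Of 9 nucleotide synthesis genes 3 were called faster, the dihydrofolate reductase gene DFR1 (−0.65, adjusted p = 0.0157), DUT1 (−0.31, adjusted p = 0.02) and CDC8 (−0.25, adjusted p = 0.0389). Of 16 checkpoint genes 4 were called faster and 0 slower, beside the same 12.1%, with MRC1 (−0.28, adjusted p = 0.0285) and TOF1 (−0.25, adjusted p = 0.0246) leading. Without the 15 min arrays 0 of all genes were called in this comparison (2142 at an unadjusted p under 0.05), and over 5 to 30 min 170 were slower and 245 faster. The nuclear anchor genes WTM1 and WTM2 went opposite ways, at 0.20 (adjusted p = 0.038) and −0.21 (adjusted p = 0.0307).

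Among the members themselves, correlations of relative values were taken over the 28 arrays at 0 to 30 min, which share 4 cultures. RNR3 and DUN1 were the highest pair at r = 0.931, followed by RNR2 and RNR4 at 0.813, and RNR1 and RNR2 the lowest at −0.863. Genes outside the members came closer to RNR3 (MRL1, 0.963), DUN1 (APC9, 0.961), RNR2 (APE4, 0.959) and RNR4 (YGR026W, 0.984).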
